A study of Mus musculus and Homo sapiens with 6 samples.

Results

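In NMuMG cells, an epithelial line from mouse mammary gland, few listed peaks were found at the 38 Hox genes described here. These members were listed for this work by name, out of 21900 protein-coding genes in a RefSeq gene table (assembly GRCm38.p6, that is, mm10). There were 10 members in the Hoxa cluster on chromosome 6, 10 in Hoxb on chromosome 11, 9 in Hoxc on chromosome 15 and 9 in Hoxd on chromosome 2. Open chromatin was mapped by ATAC-seq, in which Tn5 transposase cuts and tags accessible DNA. The NMuMG cells had fewer than 10 passages, a labelled time of 0 h and no genetic change named in the labels. They were grown in DMEM with serum, and libraries were made from 25000, 50000, 75000 and 100000 of them. Each cell number has 1 library, so that no difference between cell numbers could be tested, and none of the values below has a replicate error.

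Hox genes encode homeodomain transcription factors that give cells their position along the body axis. In mammals they lie in clusters in which the order of genes along the chromosome follows the order of their expression along the body, and genes at the same place in different clusters are called a paralog group. In cells that do not use them, Hox clusters are known as wide domains covered by Polycomb repressor complexes. In the mammary gland, Hox genes of group 9 are known to be needed for growth of the gland in pregnancy.

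The sequences below show what the promoters look like that the results turn on. They were chosen for having a peak or none at similar or different base composition. Each is the strand of the gene from 5′ to 3′, beginning 250 bases before the annotated start and ending 50 bases after it, from RefSeq in GRCm38.p6. Capitals mark CG dinucleotides (CpG), which are dense in the promoters of many widely used and developmental genes. Hoxa5 lies at chr6:52204538-52204837 on the minus strand and was the one promoter of a listed Hox gene in the table with a peak in all 4 libraries. Hoxa6 (chr6:52208623-52208922, minus strand) has its start 4.09 kb from that of Hoxa5 and no peak over it. Hoxa13 (chr6:52260831-52261130, minus strand) has the most CpG of the listed Hox genes' promoters in the table and no peak. Hoxa9 (chr6:52227321-52227620, minus strand) is poor in CpG and has no peak.
Hoxa5: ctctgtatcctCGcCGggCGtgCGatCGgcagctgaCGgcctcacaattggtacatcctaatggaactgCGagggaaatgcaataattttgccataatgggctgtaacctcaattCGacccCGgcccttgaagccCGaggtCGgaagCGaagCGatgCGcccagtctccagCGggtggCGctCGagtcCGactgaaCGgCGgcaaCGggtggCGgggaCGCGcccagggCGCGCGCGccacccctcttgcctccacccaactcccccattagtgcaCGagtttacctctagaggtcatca
Hoxa6: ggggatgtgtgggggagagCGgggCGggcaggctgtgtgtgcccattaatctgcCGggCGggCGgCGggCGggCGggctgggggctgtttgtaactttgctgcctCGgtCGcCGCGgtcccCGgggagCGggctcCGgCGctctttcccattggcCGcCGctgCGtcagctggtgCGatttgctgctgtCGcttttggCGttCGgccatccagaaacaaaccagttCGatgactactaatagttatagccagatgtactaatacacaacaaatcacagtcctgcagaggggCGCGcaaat
Hoxa13: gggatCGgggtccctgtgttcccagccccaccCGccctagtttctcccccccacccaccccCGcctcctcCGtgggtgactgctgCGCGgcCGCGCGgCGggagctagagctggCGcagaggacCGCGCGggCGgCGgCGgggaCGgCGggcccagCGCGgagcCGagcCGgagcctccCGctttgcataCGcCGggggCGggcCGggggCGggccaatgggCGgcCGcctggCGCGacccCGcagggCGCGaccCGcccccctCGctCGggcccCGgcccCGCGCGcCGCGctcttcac
Hoxa9: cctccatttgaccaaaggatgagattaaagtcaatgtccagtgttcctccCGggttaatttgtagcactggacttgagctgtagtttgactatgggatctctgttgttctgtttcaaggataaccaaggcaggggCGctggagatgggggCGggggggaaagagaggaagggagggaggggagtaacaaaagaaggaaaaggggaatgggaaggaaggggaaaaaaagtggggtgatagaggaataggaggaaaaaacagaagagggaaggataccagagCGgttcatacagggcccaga
Bases 138 to 300 of the Hoxa5 sequence, 163 bases in all, lay under the listed peak of every library.

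The lists held 38878, 43832, 41509 and 45530 peaks from 25000 to 100000 cells, each with a whole-number score of 8 or above given by the authors. The median score was 15 or 16. No read counts come with the lists, so the depth is unknown and a region without a listed peak may still be open below the threshold. The labelled epithelial identity was looked at through gene-end peaks, that is, peaks overlapping the 1 kb to either side of an annotated gene end. Such a peak was found in all 4 libraries at 6 of 10 epithelial markers, against 43.9% of all protein-coding genes. Scores were 51 to 79 at the keratin gene Krt8 and 17 to 26 at the E-cadherin gene Cdh1. Epcam, Esrp1 and Grhl2 had no gene-end peak in any library, and Cldn7 had one of score 8 at 25000 cells alone. A gene-end peak in all 4 libraries was also found at 1 of 7 fibroblast markers (Col1a1), 1 of 5 blood markers (Spi1) and 0 of 4 endothelial markers. These counts are small and were not tested.

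Few Hox genes had a peak at an end. The number of members with a gene-end peak was 2 of 38 at 25000 cells, 3 at 50000, 5 at 75000 and 6 at 100000 cells, or 5.26%, 7.89%, 13.2% and 15.8%. Of all protein-coding genes, 46.9%, 48.9%, 48.4% and 49.5% had such a peak in the same libraries. A gene-end peak in all 4 libraries was found at 2 members, Hoxa5 and Hoxa6, against 43.9% of protein-coding genes. A further 4 members, Hoxa4, Hoxa9, Hoxb8 and Hoxb13, had one in 2 libraries each, and 8.78% of protein-coding genes had one in 1 to 3 libraries. The other 32 members had none in any library, against 47.3% of protein-coding genes. These shares describe the 4 lists and were not tested, since members of a cluster are neighbours and can share a peak.

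**Figure D1:**
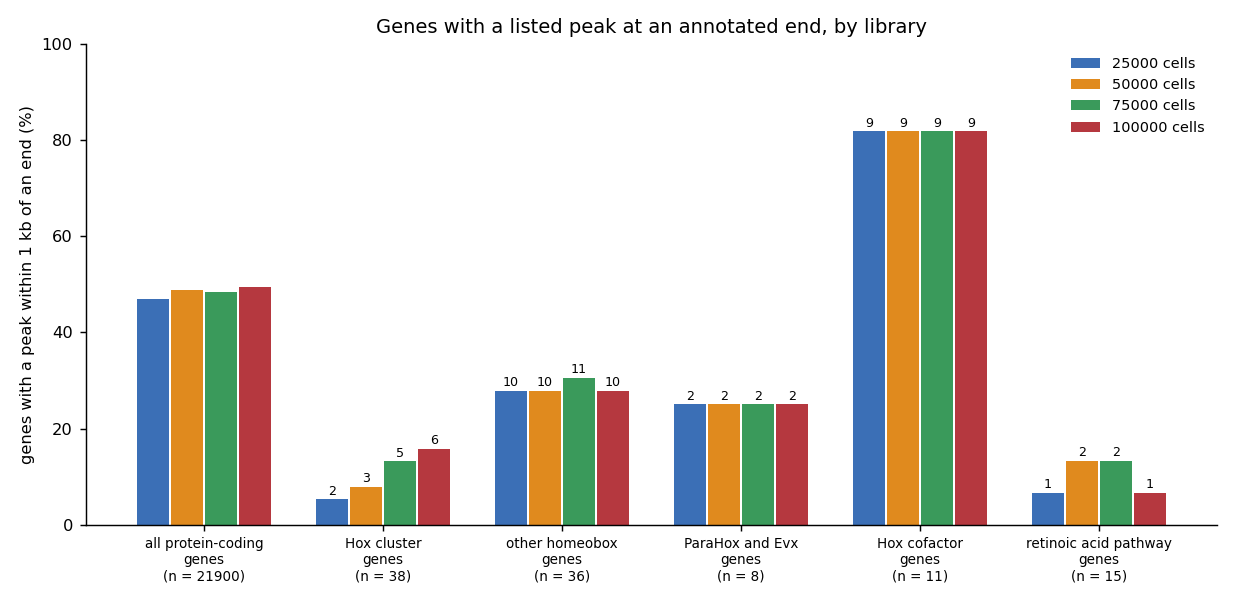
Share of genes (y axis, percent) with a listed peak within 1 kb of an annotated end, by gene list (x axis, with the number of genes) and by library (colour), with the number of genes above each bar except for all protein-coding genes. The Hox bars stand at 5.26% to 15.8% and those of all protein-coding genes at 46.9% to 49.5%.

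Peaks inside genes added little. Hoxa3, Hoxb6 and Hoxd3 had a peak inside the annotated gene but none at an end, which leaves 29 members with no listed peak in the gene or within 1 kb of it in any library, against 35.8% of protein-coding genes. By cluster, such members were 5 of 10 in Hoxa, 7 of 10 in Hoxb, 9 of 9 in Hoxc and 8 of 9 in Hoxd. They comprise Hoxa2, Hoxa7, Hoxa10, Hoxa11 and Hoxa13, then Hoxb1 to Hoxb5, Hoxb7 and Hoxb9, all listed Hoxc genes, and Hoxd1, Hoxd4 and Hoxd8 to Hoxd13. The annotated extents of Hoxa3, Hoxb3 and Hoxd3 are long (44.0, 40.8 and 36.3 kb) and run across neighbouring Hox genes. A peak counted inside Hoxa3 is therefore also one at Hoxa4 or Hoxa5 in some cases. A longer gene has more room for a peak, and the shares without one were not adjusted for gene length.

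**Figure D2:**
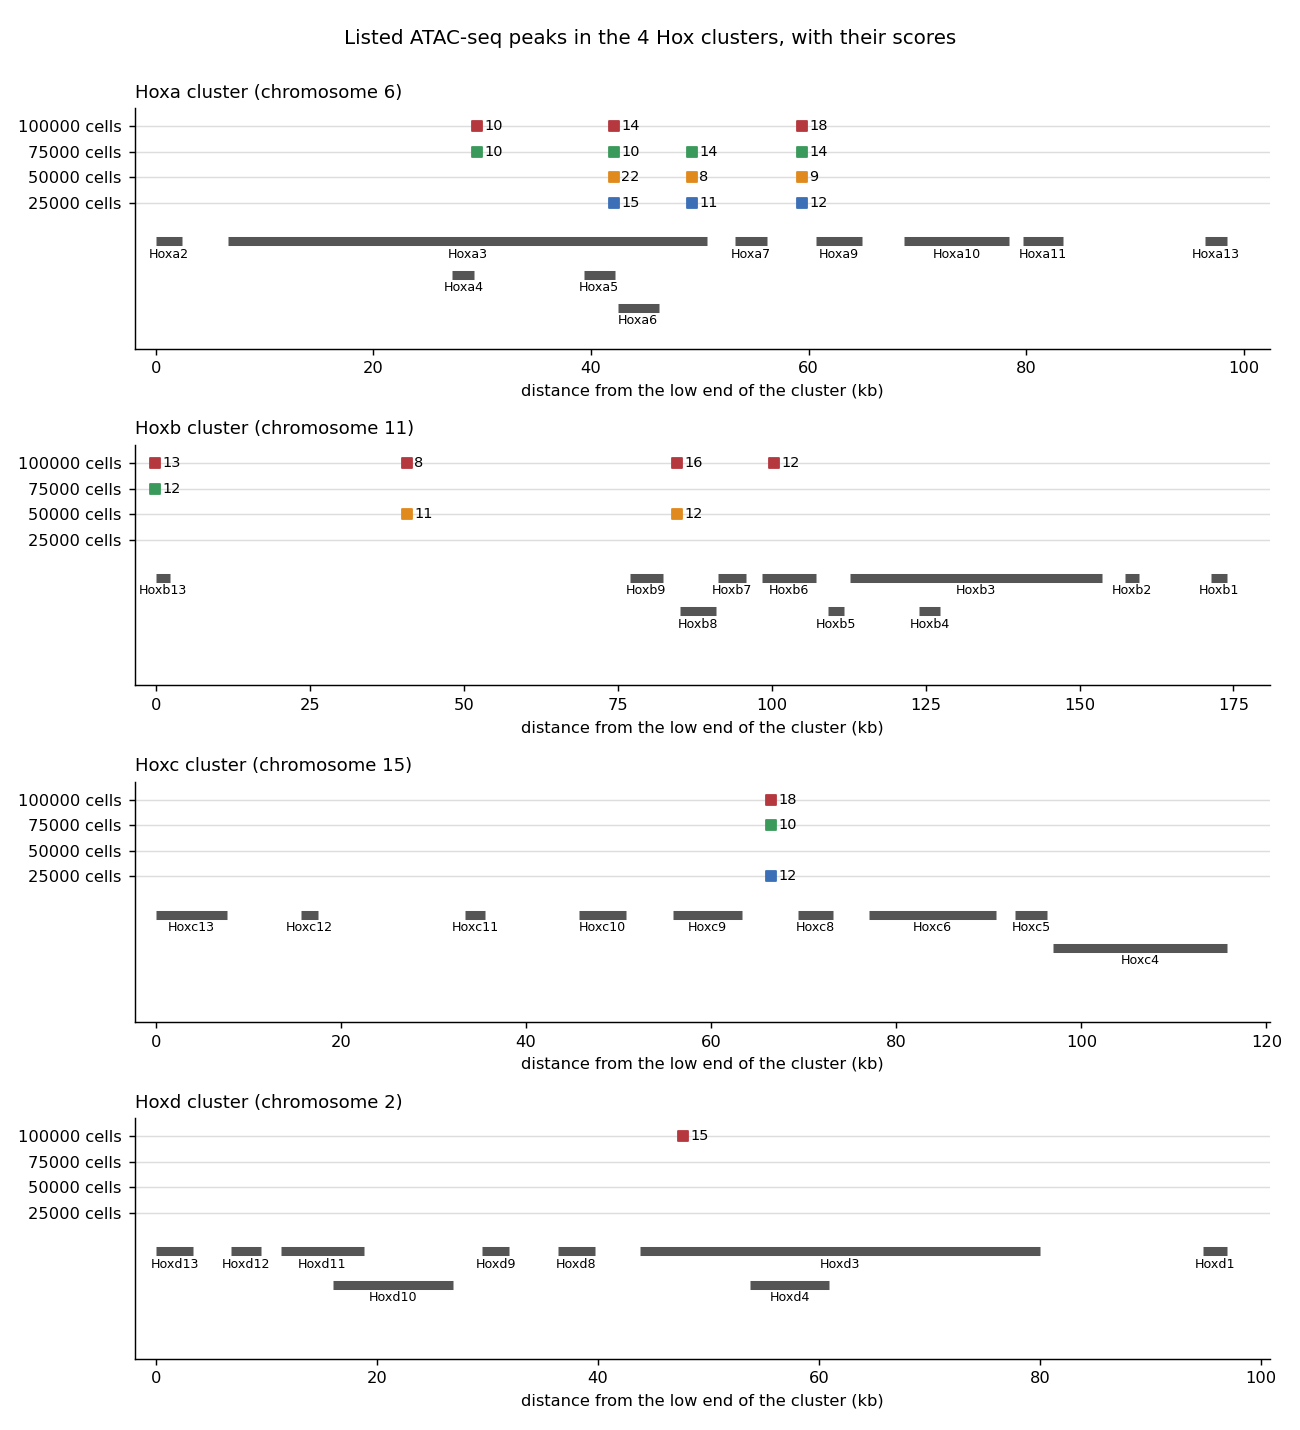
Maps of the 4 Hox clusters, with the distance from the low end of each cluster in kb on the x axis, Hox genes as grey bars and listed peaks as coloured squares on 1 line per library, each with its highest score. A square stands at the centre of the peaks merged over libraries. The square at the left edge of Hoxb has its centre 0.116 kb below the cluster and overlaps Hoxb13. Squares are found in the middle of Hoxa, at few places in Hoxb, at 1 place in Hoxc and, at 100000 cells alone, at 1 place in Hoxd.

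Among members with a peak, Hoxa5 was the one with a peak over its start in every library. Hoxa5 encodes a homeodomain factor known for its roles in lung development and in the growth control of breast cells. Its peak, at chr6:52204201-52204800 over the 4 libraries, scored 15 at 25000 cells, 22 at 50000, 10 at 75000 and 14 at 100000 cells. These scores stand at the 50.5, 64.8, 24.5 and 43.2 percentile of their lists. They are values of middle or low rank, and the 50000-cell library has the highest of them.

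The gene-end peak of Hoxa6 is the same peak. Hoxa6 lies just upstream of Hoxa5 on the same strand, and 271 bp separate the start of Hoxa5 from the downstream end of Hoxa6. The peak lay 58 to 158 bp from that downstream end in the 4 libraries, while the start of Hoxa6 had none within 1 kb. Counted by starts alone, Hoxa5 was the only member with a peak in all 4 libraries.

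Hoxa4 had a weak peak at its start in the libraries from 75000 and 100000 cells, with a score of 10 in both, at chr6:52191651-52192150. No peak was listed there at 25000 or 50000 cells. Hoxa4 belongs to a paralog group used towards the front of the body. Its peak stands at the 24.5 and 23.0 percentile of those 2 lists.

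Hoxa9, of the group named above for the mammary gland, was counted by a narrow margin. A region between Hoxa7 and Hoxa9, at chr6:52221501-52222100, had a peak in all 4 libraries, with scores of 12, 9, 14 and 18 from 25000 to 100000 cells. It ended 1097, 1047, 997 and 997 bp below the downstream end of Hoxa9, so that 4 bases fell in its window at 75000 and 100000 cells and none in the other libraries. The start of Hoxa9 lies at the far end of the gene and had no listed peak within 1 kb. The other group 9 members, Hoxb9, Hoxc9 and Hoxd9, had no listed peak in the gene or within 1 kb of it.

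The fourth region of the Hoxa cluster lay between Hoxa6 and Hoxa7 at chr6:52211401-52211950, inside the annotated extent of Hoxa3 and of the non-coding gene Hoxaas3. Its highest score was 11 at 25000 cells and 8 at 50000, with 2 peaks each, and 14 at 75000 cells with 1 peak, and it had no listed peak at 100000 cells. Its middle lies 1.39 kb from the farthest annotated start of Hoxa3. All 4 regions of Hoxa lay in the stretch from Hoxa4 to Hoxa9, and none lay at Hoxa10, Hoxa11 or Hoxa13, the members at the end of the cluster used in the hind part of the body and in the limbs.

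Inside Hoxb, with peaks placed by their centre, no peak was listed at 25000 or 75000 cells. Those of the other libraries scored at most 16, the median of the 100000-cell list. A peak at the annotated low end of Hoxb8, at chr11:96278651-96279200, scored 12 at 50000 and 16 at 100000 cells. The promoter table places the start of Hoxb8 a further 2.50 kb into the gene, where no peak was listed. A peak over the start of Hoxb13, the member nearest the hind end of the series and known from the prostate, scored 12 at 75000 and 13 at 100000 cells. The centre of this peak lay 0.116 kb below the cluster, so that here and in the counts below it fell in the flanks. A peak inside Hoxb6, at chr11:96294401-96294950 and also within the non-coding gene Hoxb5os, scored 12 at 100000 cells only. The third region inside the cluster lay between genes at chr11:96234801-96235300, in the long stretch from Hoxb13 to Hoxb9, and scored 11 at 50000 and 8 at 100000 cells.

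Hoxc and Hoxd were nearly empty. The one region inside Hoxc lay between Hoxc9 and Hoxc8 at chr15:102987301-102987850, 2.96 kb before the start of Hoxc8. It scored 12 at 25000 cells, 10 at 75000 and 18 at 100000 cells, and the 50000-cell library had no peak anywhere in the cluster. The one region inside Hoxd lay at chr2:74715651-74716150, inside Hoxd3 and at an annotated end of the non-coding gene Hoxd3os1. It scored 15 at 100000 cells, and the other 3 libraries had no peak inside Hoxd.

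Together the 4 clusters span 485 kb and contained 5, 6, 5 and 8 peaks from 25000 to 100000 cells. By the class of their centre, 1, 2, 2 and 4 of these were within 1 kb of an annotated gene end, non-coding genes included, 2, 2, 1 and 1 were elsewhere inside a gene, and 2, 2, 2 and 3 were between genes. This is 1.03, 1.24, 1.03 and 1.65 peaks per 100 kb, against 1.43, 1.61, 1.52 and 1.67 over the nuclear chromosomes. The clusters are dense in genes, with 7.83 members per 100 kb against 0.804 protein-coding genes over the genome. Per protein-coding gene, the clusters thus contained 0.132, 0.158, 0.132 and 0.211 peaks, and the genome 1.78, 2.002, 1.90 and 2.08. A value per gene falls as gene density rises, so that it differed even at 100000 cells, where the peaks per 100 kb were nearly alike. The clusters differ among themselves, since Hoxa had 3.05 to 4.06 peaks per 100 kb, more than its chromosome (1.33 to 1.60), while Hoxd had 0 in 3 libraries and 1.03 in the fourth.

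The scores of the peaks inside the clusters were at most 15, 22, 14 and 18 from 25000 to 100000 cells. In the same lists, 47.9%, 34.3%, 53.2% and 43.3% of all peaks scored higher than these. At or above the median score of their list were 1 peak at 25000 cells, 1 at 50000, 0 at 75000 and 3 at 100000 cells. Merged over libraries there were 9 regions inside the clusters, of which 2 (22.2%) were found in every library. The exact Clopper-Pearson interval (95%) ran from 2.81 to 60.0. Of the regions of the whole lists 46.3% (45.9 to 46.7) were found in every library. The intervals cover counting error only and treat regions as independent, and the 2 intervals overlap. The shares were not matched for score, and the difference between them was not tested.

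The distance from a member to open chromatin varied between clusters and libraries. From the nearer annotated end of a member to the edge of the nearest peak, the median over 38 members was 30.5, 30.9, 53.6 and 9.74 kb from 25000 to 100000 cells. Over all protein-coding genes it was 1.76, 1.21, 1.35 and 1.08 kb. The spread is wide, with an upper quartile over all protein-coding genes of 37.2, 29.3, 32.9 and 28.6 kb. The median of the members lay below that quartile at 25000 and 100000 cells and above it at 50000 and 75000 cells. The longest distance in each library was that of Hoxb1 at 25000 cells (220 kb) and at 75000 cells (171 kb), of Hoxc8 at 50000 cells (169 kb) and of Hoxb2 at 100000 cells (56.7 kb). For Hoxd13 the distance was 4.38, 4.43, 89.0 and 44.0 kb, since a peak of 9 and 8 in the non-coding gene Gm31790, beyond the cluster, was listed in the 2 libraries of fewest cells alone. At 100000 cells Hoxb6 and Hoxd3 each had a peak that no other library had, and leaving out that library took the members with no listed peak from 29 to 31.

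In some libraries a stretch without any listed peak ran over all members of a cluster. At 25000 cells 1 such stretch of 601 kb, at chr11:96146101-96747400, contained all 10 Hoxb members. At 50000, 75000 and 100000 cells, the stretch with the most Hoxb members contained 8, 9 and 5. A member lying in a stretch could still have a peak within 1 kb of an end. Hoxb8 at 50000 cells and Hoxa9 at 75000 and 100000 cells are such cases. At 50000 cells a stretch of 344 kb on chromosome 15 contained all 9 Hoxc members, and in the other libraries stretches of 147, 147 and 96.1 kb contained 5. The 9 Hoxd members lay in 1 stretch of 162 kb at 25000 cells, of 162 kb at 50000 cells and of 246 kb at 75000 cells, and at 100000 cells 6 of them lay in 1 of 119 kb. In Hoxa a stretch of 356 kb in every library, from just below Hoxa9 upwards, contained Hoxa9, Hoxa10, Hoxa11 and Hoxa13. The median stretch between neighbouring peaks of a list was 16.7 to 18.3 kb. Stretches that contained 9 or more protein-coding genes, as that of Hoxd at 25000 cells did, were 139 of 36343 in that library, or 0.382%. By length alone, 7.74% of the stretches in that library were at least as long, and the clusters are dense in genes. For the stretches described here this share by length ran from 1.96% (Hoxb at 25000 cells) to 11.7% (Hoxc at 100000 cells). The stretches were described after the values of the clusters were seen.

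Genes beside the clusters were mixed. Of the 24 protein-coding genes taken as neighbours, 3 on each side of each cluster, a gene-end peak was listed in each library at 16 (66.7%), against 43.9% of protein-coding genes, and at 5 in none. The neighbours lay up to 894 kb away, and Ttll6, Calcoco2, Skap1 and Smug1, within 28.1 to 116 kb of Hoxb or Hoxc, had a gene-end peak in 1 library at most. On the low side of Hoxd, Lnpk, which encodes a protein of the endoplasmic reticulum, scored 47, 61, 31 and 39 from 25000 to 100000 cells at 88.8 kb from the cluster. On its other side the mitochondrial import gene Mtx2 scored 17, 28, 17 and 15 at 60.7 kb. Between them, Evx2, a homeobox gene 6.71 kb from Hoxd13, had no gene-end peak, and neither had Evx1 at 52.6 kb from Hoxa13. Beside Hoxb, the sorting nexin gene Snx11 scored 101, 110, 83 and 105, at 399 kb from the cluster. Beside Hoxc, Cbx5, which encodes the heterochromatin protein HP1 alpha, and Hnrnpa1 shared a peak of 48, 64, 61 and 69. Each of the 16 genes with a gene-end peak in every library scored 15 or above in each. Those 16 were picked by having that peak, and Snx10, Skap1 and Smug1, with one in fewer libraries, scored 9 or 10. The highest gene-end score of the 38 listed Hox genes in any library was 22, within the range of Mtx2.

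**Figure D3:**
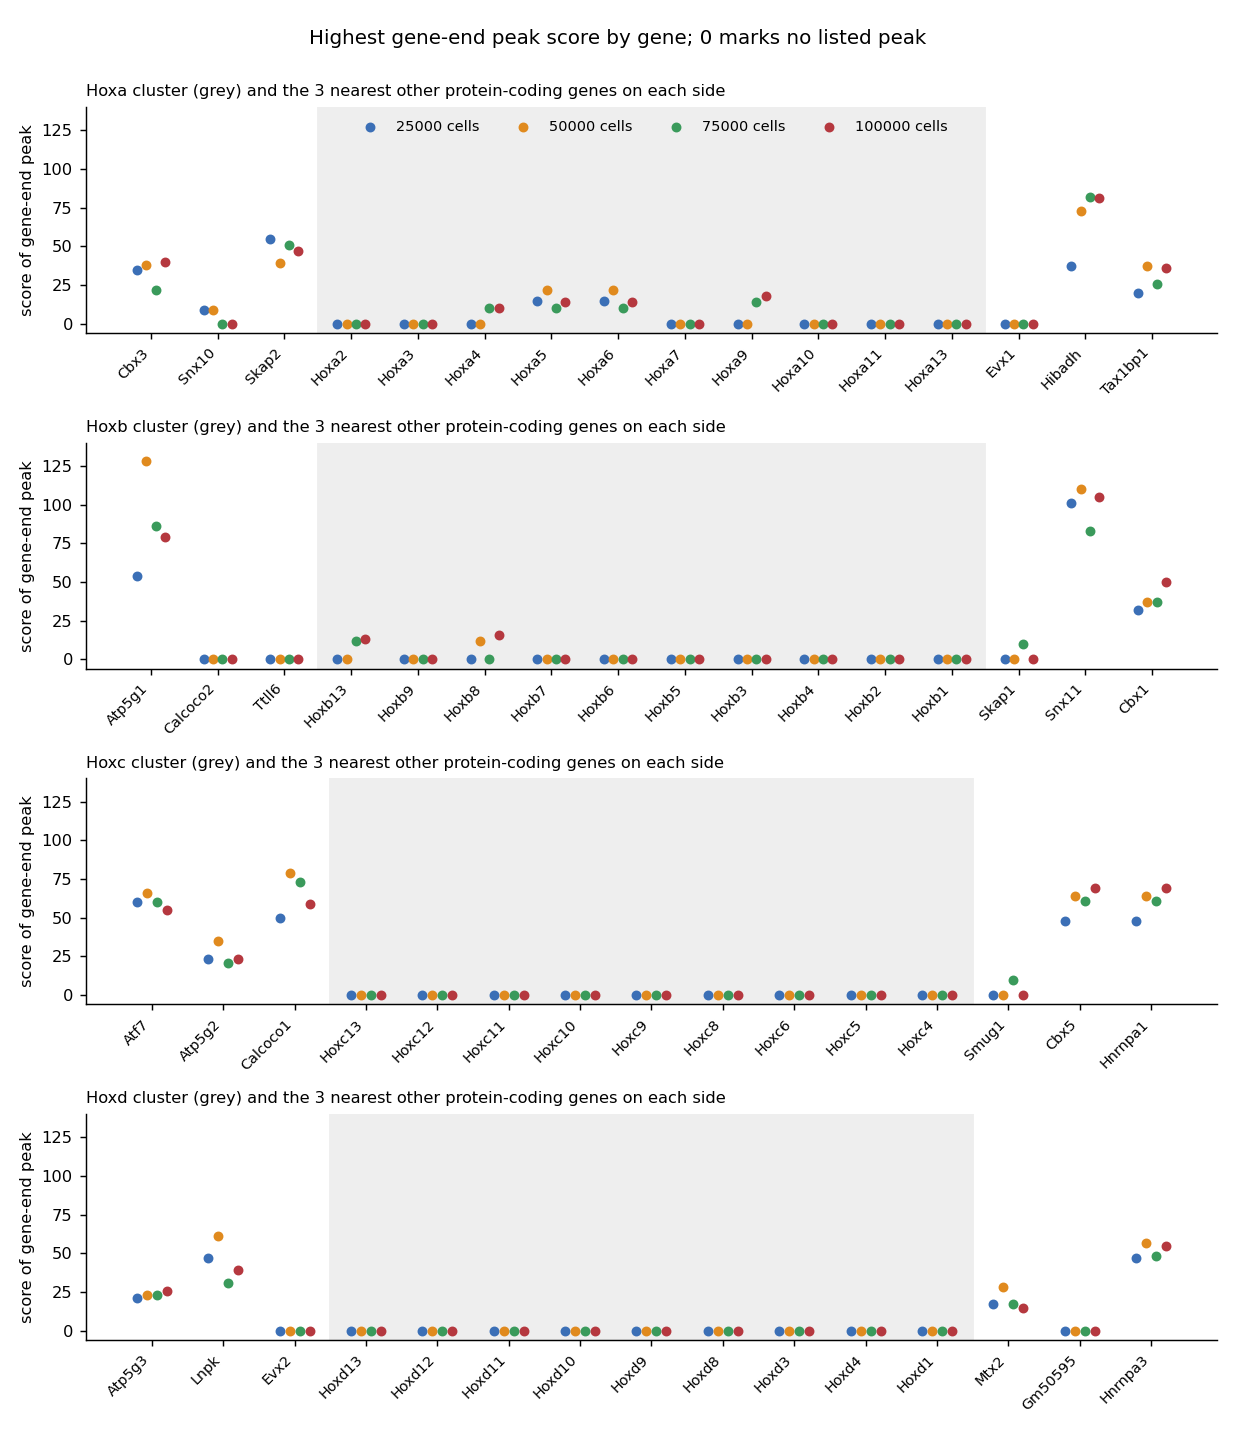
Highest score of a gene-end peak (y axis, the authors' score) for each listed Hox gene (grey area) and for the 3 nearest other protein-coding genes on each side, in chromosome order (x axis), with 1 point per library. Points at 0 mark genes without a listed peak. Within the grey areas no point is above 22, while points of neighbours reach 128 at Atp5g1.

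The 100 kb flanks of the clusters contained 11, 12, 8 and 14 peaks from 25000 to 100000 cells. The highest scores were those of a region beside Hoxb, at chr11:96140551-96141650, within the tubulin ligase gene Ttll6 and 53.2 kb from the start of Hoxb13, with highest scores of 71, 85, 70 and 83. A second region in Ttll6, at chr11:96145451-96146100, scored 27, 16, 22 and 29. The flanks of Hoxa contained 2, 3, 1 and 1 peaks. The flanks of Hoxc contained 1, 0, 2 and 1 peaks, with scores of 8 to 14. The regions found in all 4 libraries in the flanks of Hoxd were those at the ends of Lnpk and Mtx2.

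Non-coding genes of the clusters also had few peaks, as do non-coding genes elsewhere. Of 30 genes between the outermost members that do not code for protein, 0 had one at an end in every library, against 10.1% of such genes in the genome, and 28 had none in any library, against 83.9% of such genes. With 30 genes these shares are near those of the genome. Those without one include Hotair, a long non-coding RNA of Hoxc, Haglr of Hoxd and Hoxa11os of Hoxa. Hoxd3os1 had the peak of 15 at 100000 cells described above, and a non-coding gene that ends beside Hoxa4 had the peak of 10 there. Among the 30 are 6 microRNA genes, which the clusters carry between their protein-coding genes and whose products are known to act on Hox messenger RNAs. They fall mainly into a miR-10 and a miR-196 family, given here by their mature 5p sequences with the seed, bases 2 to 8, in capitals, since the genes of each family lie at like places in different clusters.
mmu-miR-10a-5p: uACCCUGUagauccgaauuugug
mmu-miR-10b-5p: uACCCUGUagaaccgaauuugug
mmu-miR-196a-5p: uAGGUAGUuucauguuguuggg
mmu-miR-196b-5p: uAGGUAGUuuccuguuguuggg
The sequences are from RefSeq in GRCm38.p6, and the members of each family share 1 seed. None of the 6 genes had a listed peak within 1 kb. The nearest lay 22.2 to 171 kb from the miR-10a sequence in Hoxb and 9.92 to 99.4 kb from that of miR-10b in Hoxd. For miR-196b in Hoxa the nearest lay 8.03 to 8.13 kb away. For miR-196a it lay 13.4 to 119 kb from the copy in Hoxb and 13.9 to 154 kb from that in Hoxc.

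Base composition was then compared, since most peaks at gene starts lie in CpG-rich sequence. The promoter table contained 24 windows of 300 bp for 22 of the 38 members (9 of Hoxa, 3 of Hoxb, 1 of Hoxc and 9 of Hoxd), and 21263 windows of protein-coding genes in all. The median share of G and C was 57.7% in Hox windows and 56.3% in all windows, and the median ratio of observed to expected CpG was 0.626 and 0.567. A peak overlapped the window in all 4 libraries in 1 of 24 Hox windows, that of Hoxa5, against 40% of all windows. Windows were called CpG-rich at a ratio of at least 0.6 with at least 55% G and C, limits set after the peaks were seen. Of 9 CpG-rich Hox windows 1 had a peak in all 4 libraries, against 70.9% of the CpG-rich windows of protein-coding genes. The other 8, of Hoxa3, Hoxa6, Hoxa10, Hoxa13, Hoxd1, Hoxd10, Hoxd11 and Hoxd13, had none in any library.

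The sequences printed above show this case by case. Hoxa5 and Hoxa6 have 61.7% and 62% G and C, with 29 and 26 CpG and ratios of 1.02 and 0.923, and a peak covered the start of the first and not of the second. Hoxa13 has 81% G and C and 45 CpG, and Hoxa9 has 49.7% and 4 CpG. Neither had a listed peak over its window. The ratio of Hoxd13, the last gene of its cluster and known for limb defects when mutated, was 0.904 with 37 CpG, again without a peak.

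**Figure D4:**
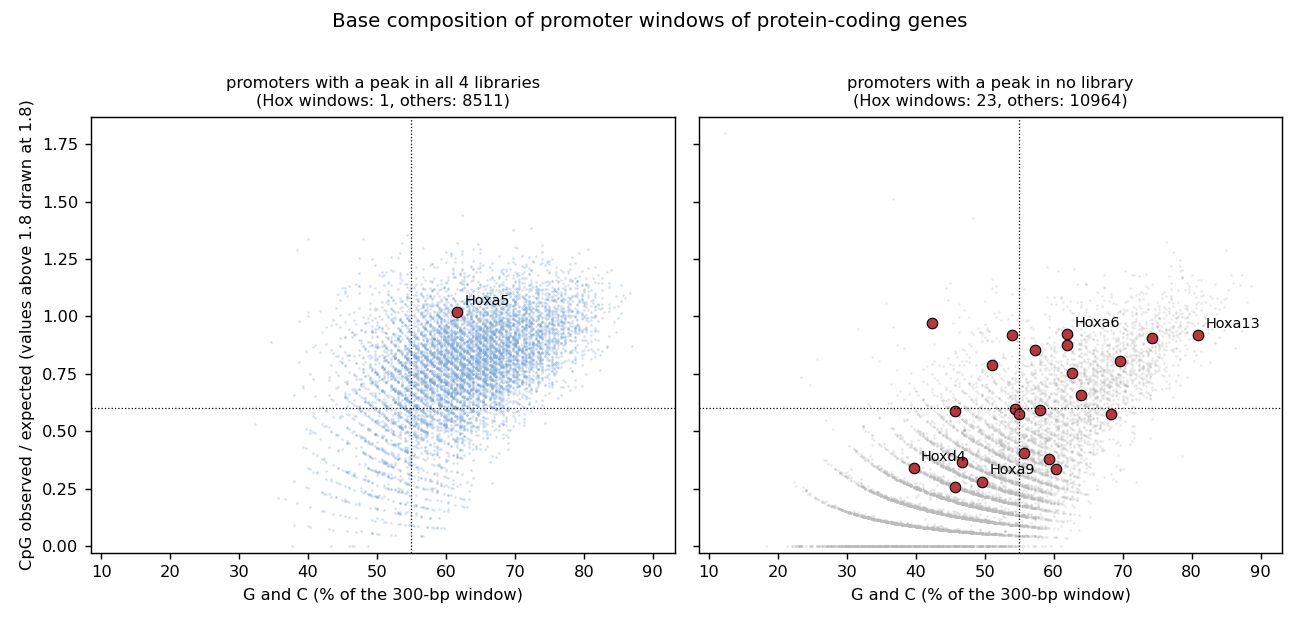
Share of G and C (x axis, percent) against the ratio of observed to expected CpG (y axis) in 300-bp promoter windows of protein-coding genes, for windows with a peak in all 4 libraries (left) and in none (right), with Hox windows in red and dotted lines at 55% and 0.6. Hoxa5 is the only window of a listed Hox gene on the left, and 8 of the 23 on the right are above both lines, Hoxa6 and Hoxa13 among them.

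Motifs were counted in the same windows on both strands. The Hox-Pbx motif TGATTGAT, bound by Hox proteins together with their Pbx partners, was found in 2 of 24 Hox windows (8.33%), of Hoxa2 and Hoxd11, and in 0.616% of all 21263 windows. The variant TGATTTAT was found in 0 Hox windows and 0.814% of all. The homeodomain core TAATTA was found in 2 Hox windows, both of Hoxd11, and 4.53% of all, the GC box GGGCGG in 10 (41.7%) and 46.2%, the TATA box TATAAA in 4 (16.7%) and 12.6%, the AP-1 motif TGANTCA in 1 (4.17%) and 6.99%, and GAGAG in 16 (66.7%) and 62.0%. No pair of these motifs contains one another. The stretches with TGATTGAT are shown because they are the 2 matches, each with the motif, read as its reverse complement, in capitals. They lie at chr6:52164909-52164968 on the minus strand for Hoxa2 and at chr2:74682224-74682283 on the plus strand for Hoxd11.
Hoxa2: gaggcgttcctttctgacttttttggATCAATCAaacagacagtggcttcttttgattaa
Hoxd11: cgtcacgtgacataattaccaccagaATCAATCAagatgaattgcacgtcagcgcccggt
Neither window had a listed peak. A match is a string of letters and says nothing of binding in these cells.

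Other genes of the homeobox class and of the pathways around Hox genes were counted the same way. Of 11 genes listed as Hox cofactors by their homeobox class (TALE), 9 carried a gene-end peak in every library (81.8%). The share of protein-coding genes was 43.9%, and the next counts can be read against it. The class is wider than the partners that bind DNA beside Hox proteins, and Tgif1 and Tgif2 were counted as members of the class. Tgif1 scored 50, 51, 42 and 54 from 25000 to 100000 cells, Pbx3 23, 37, 44 and 42, and Pknox1 30, 46, 26 and 35. Pknox2 and Tgif2 had none at their ends, and Tgif2 had 1 peak inside the gene. Most genes of this list had listed gene-end peaks in libraries in which most Hox genes had none.

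Of 8 ParaHox and Evx genes, relatives of the Hox genes, 2 carried one in every library (25%, against 43.9%). Cdx2, a gene of the intestine and of early placenta, scored 36, 31, 34 and 47, and Pdx1, a gene of the pancreas, 27, 21, 19 and 26. The peak counted for Cdx2 lay outside the gene. It ended at chr5:147300100, and the annotated low end of Cdx2 is at 147300900. Peaks inside Cdx2 were listed at 75000 and 100000 cells alone, with highest scores of 11 and 12. Cdx1, Cdx4, Gsx1 and Gsx2 had none. Of 36 other homeobox genes, which lie outside the Hox clusters, 10 (27.8%) carried one in every library, among them Dlx2 (33, 40, 40 and 44), Irx5 (29, 52, 32 and 45), Otx1 (26, 35, 37 and 34) and Irx3 (39, 44, 27 and 25). Dlx3, Dlx5, Dlx6 and Msx2 had none. Their share lies between that of the Hox genes and that of all protein-coding genes.

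Retinoic acid is a known inducer of Hox genes. Of 15 genes of its pathway, 1 carried one in every library (6.67%, against 43.9%), the receptor gene Rxrb with 23, 28, 37 and 44. The receptor gene Rara had gene-end peaks of 8 at 50000 and 10 at 75000 cells and peaks inside the gene in all libraries. The highest inside Rara scored 42, 80, 89 and 88 from 25000 to 100000 cells. Rarb, Rarg, Rxra and Rxrg had none at their ends, but Rarb, Rarg and Rxra had peaks inside the gene in all libraries. The highest inside Rarg scored 35, 49, 33 and 34, and Rxrg had no peak inside it. In this list 4 of 15 genes (26.7%) had no peak in the gene or within 1 kb of it, against 35.8% of protein-coding genes. The lists differ in gene length and number, and the differences between them were not tested.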

How the data were processed

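ATAC-seq peak lists of 4 NMuMG libraries were used, made from 25000 to 100000 cells. Lysis was in CSK buffer, followed by Tn5 and PCR, per the labels' protocols. Of a second line, MDA-MB-231, 2 samples are labelled and not analysed here. The submitters' processing notes name Bowtie 0.12.8, bedtools 2.17.0, Picard 1.107, cutadapt and SAMtools and the builds mm10 and hg19, with no roles; the peak caller is not given in the sources used here. Each deposited list gives, per peak, a position and a whole-number score by the authors, lowest value 8. How the score was made is not stated, so scores were compared mainly by rank within a list. Read depth is unknown.

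Peaks were set against RefSeq genes of GRCm38.p6 with Python 3.11.15, pandas 2.3.3 and scipy 1.17.1. A gene-end peak overlaps by 1 bp or more the 1 kb to either side of either annotated end. Peaks inside clusters and in 100 kb flanks were placed by their centre. For regions shared by libraries, overlapping peaks were merged. Overlap counting was checked on simulated peaks. With 1 library per cell number no test was run. Genome density was taken up to the last gene or peak of each chromosome.

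All listed members were described, and other genes were named by list order, score or nearness. The members and lists were chosen with earlier results of these data known, and the CpG limits, stretches, distances, densities and printed sequences were chosen after values were seen. Items that these rules select are not reported here. Strands of members outside the promoter table were taken from the other members of the cluster.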

Additional observations from a re-analysis of the deposited data

How the results depend on the processing

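The counts are small, so that 1 weak peak can change them. The members with a gene-end peak in all 4 libraries were 2, and this became 5 with a window of 5 kb, 1 with starts from the promoter table (22 of 38 members), 1 with starts set by the strand of each cluster, and 0 with only peaks at or above the median score of each list. Per library, the 2 kb window took 2 to 4 at 25000 and 3 to 5 at 50000 cells. Promoter-table starts gave 1 in each library, and starts by strand gave 1 at 25000 and 3 at 75000 cells. At the median score the count became 0 at 75000 and 2 at 100000 cells. Inside the clusters the median score left 1, 1, 0 and 1 peaks in Hoxa from 25000 to 100000 cells, 0 at 50000 and 1 at 100000 cells in Hoxb, 0 at 25000 and 75000 cells in Hoxc, and 0 at 100000 cells in Hoxd. No region inside the clusters was then shared by all 4 libraries (0, against 2). Equal numbers of highest-scoring peaks took Hoxa from 4 to 2 at 50000 cells. In the flanks the median score left 1 at 25000 cells beside Hoxa, 2, 2 and 4 at 25000, 50000 and 100000 cells beside Hoxb, 0 at 25000, 75000 and 100000 cells beside Hoxc, and 2 and 1 at 25000 and 100000 cells beside Hoxd. Flanks of 50 kb, which contain less sequence by construction, left 1 at 25000 cells for Hoxa, 1, 2 and 3 at 25000, 50000 and 100000 cells for Hoxb, 0 at 25000 and 75000 cells for Hoxc, and 1, 1, 0 and 0 from 25000 to 100000 cells for Hoxd. The cause was not tested for the other changes.

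Leaving out each library in turn gave 2 to 2 members with a gene-end peak in all remaining libraries, 29 to 31 members with no listed peak, and 2 to 3 shared regions. Of the CpG-rich Hox windows, 1 of 12 had a peak without the limit on G and C (69.9% of all such windows) and 1 of 8 at a ratio of 0.75 (74.1%). Both, and the starts by strand, were chosen after seeing the data. No paired analysis was possible because each cell number has 1 library and no test was run. Depth is unknown, and a peak scoring under 8 would not be listed.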
